A study of Mus musculus with 6 samples.

Results

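Fibroblasts (FBs) of old mouse proximal pulmonary arteries (PAs) that held RNA of Cdkn1a, the gene for the cyclin-dependent kinase inhibitor p21, were compared with FBs of the same arteries in which none was found. FBs were taken as barcodes with at least 4 UMIs (molecular barcodes, each counting 1 captured RNA) of Pdgfra, Dpt, Clec3b, Col3a1 and Lum together, and more than 2 times as many of these as of Ptprc, Pecam1, Cdh5, Myh11, Msln, Upk3b and Scgb1a1, markers of leukocytes, endothelium, smooth muscle, mesothelium and airway. Each FB was thinned to 1000 randomly drawn UMIs, and a cell with at least 1 Cdkn1a UMI among them was called Cdkn1a-positive. This gave 197 positive and 1201 negative cells among 1398 FBs, out of 8422 cells kept in 3 libraries and 10596 in the whole series. The members were thus chosen by the measured UMIs of Cdkn1a itself and of the 12 marker genes, and the levels of these genes are given below as a description, with no test.

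p21 is the best known transcriptional target of the tumor suppressor p53. After DNA damage or other stress, p53 raises p21, which holds cells out of the cycle, together with genes that feed back on p53 (Mdm2), favor cell death (Bax, Bbc3, Fas), restrain growth signaling (Phlda3, Sesn1, Sesn2) or repair DNA (Ddb2, Xpc). Lasting p21 is also one mark of cellular senescence, beside p16 (from Cdkn2a), loss of Lmnb1 and secretion of cytokines and proteases. Cdkn1a can be raised without p53, for instance by TGF-beta or as part of the immediate early response, which tissue digestion also sets off. FBs of the arterial adventitia make most of its collagen and other matrix.

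The libraries came from 3 old wild-type C57BL/6J mice, untreated and 1 animal each, described as male (20 and 27 months) or female (28 months). The main PA was digested with collagenase and elastase and single cells were captured in droplets with a 3′ kit. The comparison was made within each animal, and both classes of FBs shared the digestion, the library and its depth. The 20-month library gave 37 positive and 100 negative FBs, the 27-month library 79 and 396, and the 28-month library 81 and 705. The FBs had a median of 3041, 5995 and 6627 UMIs in the same order, and the sums per class held from 118886 to 4851901 UMIs. No FB barcode was shared between libraries. In the FBs of the 20-month library, described as male, Xist gave 331 UMIs and the Y-linked Ddx3y, Eif2s3y, Kdm5d and Uty gave 25, 0, 1 and 1, whereas the 27-month library gave 1 UMI of Xist and 644, 166, 60 and 223 of the others. The 20-month library thus went against its described sex, and the counts of calls and the gene lists that lead the results are given without it as well.

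Both classes carried the markers of FBs. All of the 10 FB markers listed for this check were detected in all of the 6 sums (1 per library and class), at 29421 to 41084 CPM together (CPM are UMIs of a gene scaled to the summed UMIs of a library's class). The gate genes Pdgfra, Dpt, Clec3b, Col3a1 and Lum were among them, so their summed presence was set by the rule. The rule did not use the others, Dcn, Col1a1, Col1a2, Gsn and Mfap5. Pdgfra, the PDGF receptor that served as a gate gene, was at 261, 348 and 284 CPM in positive and 257, 446 and 406 CPM in negative FBs at 20, 27 and 28 months. At the edge of the gate, 4, 0 and 11 FBs of the libraries had just 4 marker UMIs, and 2, 2 and 6 further barcodes had 3 and were left out. The ratio to the opposing markers left out many more, 76, 1740 and 676 barcodes with at least 4 marker UMIs at 20, 27 and 28 months. The part of FBs among these was not tested.

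Cdkn1a was found in a minority of old FBs in each artery. Among the 1000 drawn UMIs, 27.01% (exact 95% interval 19.8 to 35.3) of FBs held Cdkn1a at 20 months, 16.6% (13.4 to 20.3) at 27 months and 10.3% (8.27 to 12.6) at 28 months. Of the positive cells, 23 of 37, 50 of 79 and 64 of 81 held just 1 Cdkn1a UMI, the value next to the limit. Without thinning the shares were 48.9%, 40.4% and 29.0%. In smooth muscle cells (SMCs) of the same libraries thinned alike, the share was 13.04%, 12.6% and 5.15%, and in endothelial cells (ECs) it was 47.4%, 12.5% and 12.9%. B cells, which served as a measure of background, gave 1 of 5 cells at 20 months (exact interval 0.505 to 71.6%), too few to read, 0 of 31 at 27 months, which allows a share of up to 9.68% by a limit of 3 counts (exact upper bound 11.2%), and 5 of 241 at 28 months, or 2.07% at a median of 7866 UMIs. Free RNA, read in barcodes under 100 UMIs, held Cdkn1a at 184, 70.8 and 57.4 CPM, so the shares in FBs, SMCs and ECs and the level in free RNA all had their highest value in the 20-month library. The part of free RNA in these shares was not tested. The intervals cover counting error only, and with 1 animal per age, age and animal cannot be told apart.

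The UMIs of each FB that were left after the draw were not used by the rule and are given as a description of the classes. In these UMIs Cdkn1a was at 1014, 1028 and 694 CPM in positive and at 214, 125 and 85.6 CPM in negative FBs at 20, 27 and 28 months. Every positive sum was above every negative sum, with a mean log2 ratio of 2.77 ± 0.45 (SD, n = 3 libraries), a 6.80-fold difference. FBs with 1 drawn Cdkn1a UMI lay between the others, at 591, 749 and 603 CPM, and FBs with 2 or more reached 1645, 1467 and 1023 CPM. Of the negative cells, 30.0%, 28.5% and 20.9% held Cdkn1a among these UMIs, so the negative class was not free of Cdkn1a.

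**Figure D1:**
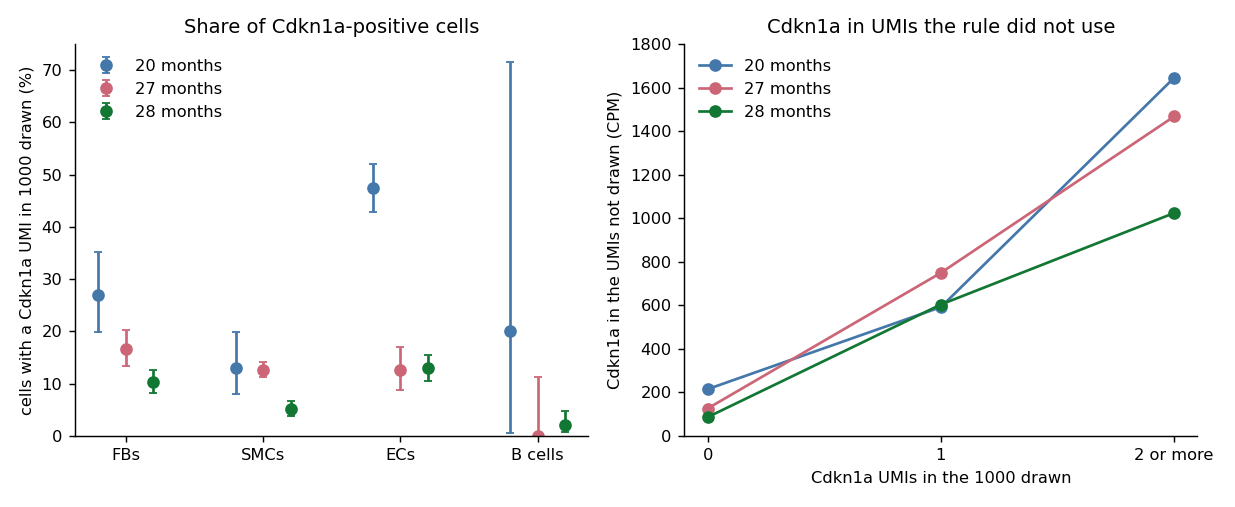
Left, the percent of cells with at least 1 Cdkn1a UMI among 1000 drawn UMIs in FBs, SMCs, ECs and B cells of the 20-, 27- and 28-month libraries (points, bars are exact 95% binomial intervals). Right, the level of Cdkn1a (CPM) in the UMIs that were not drawn, for FBs with 0, 1 and 2 or more drawn Cdkn1a UMIs, which was 85.6 to 214 CPM in negative FBs and 1023 to 1645 CPM in FBs with 2 or more.

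The classes were close in depth, and positive FBs held more immediate early RNA. Median UMIs per cell were 2919, 6522 and 6253 in positive and 3057, 5896 and 6681 in negative FBs, and the share of mitochondrial UMIs had medians of 1.27%, 1.31% and 2.31% against 1.51%, 1.30% and 2.52%. Positive FBs held more UMIs of 43 immediate early genes in 1000 drawn UMIs, with medians of 21, 18 and 7 against 18, 15 and 5, a mean difference of 2.67 ± 0.577 (SD, n = 3 libraries, exact two-sided permutation p = 0.25, the smallest possible). Markers of other cells were present in both classes at varied levels. Summed markers of B and T cells were at 0, 0 and 47.1 CPM in positive and 0, 0.820 and 5.98 CPM in negative FBs, those of mesothelium at 0, 15.2 and 270.1 against 141, 26.2 and 54.8 CPM, those of macrophages and other myeloid cells at 50.5, 57.1 and 504 against 31.3, 104 and 322 CPM, and those of ECs at 227, 62.8 and 69.7 against 250.4, 59.4 and 37.7 CPM. Markers of SMCs and pericytes gave 2776, 346 and 209 against 2629, 464 and 196 CPM. Those of adipocytes and cardiomyocytes gave 8.41, 162 and 3.49 against 28.2, 32.4 and 7.42 CPM, those of chondrocytes 42.1, 105 and 62.7 against 138, 134 and 87.0 CPM, those of airway epithelium 75.7, 139 and 38.3 against 100.2, 152 and 37.5 CPM and those of Schwann cells 0, 19.0 and 24.4 against 34.4, 27.9 and 33.6 CPM. Hemoglobin and other erythrocyte markers were at 1969 CPM in positive and 10372 CPM in negative FBs at 28 months, and at 12.5 to 42.1 CPM elsewhere. The part of these other cells in the results below was not tested beyond the removal of doublets.

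Summed over cells and paired within library, 7001 genes with a UMI in more than 5% of FBs in each library were tested by edgeR's quasi-likelihood test. Of these, 17 rose in Cdkn1a-positive FBs at an adjusted p under 0.05, which is 0.243% of the genes tested, and 4 fell, which is 0.0571%. At an unadjusted p under 0.05 there were 439. The genes that rose with the largest fold changes and in each of the 3 libraries were Ano3, Trp53inp1, Gria3, Nr4a2, Ak1, Pde4b, Rps27l, Has1, Bax, Ptgs2, Gas6 and Ier3, followed by Junb and Crip1. Aldh1a1, Nkain2 and Zeb1 fell in each library. Anks1b, Phlda3, Exoc4 and Ccbe1 passed the test with the opposite sign in the 20-month library. For 4 of the 17 genes that rose (Ano3, Trp53inp1, Bax and Ak1) every positive sum was above every negative sum, as compared with 4.64% of all genes tested that had no overlap in either direction.

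The number of calls depended on which 1000 UMIs were drawn. With another random seed 42 genes rose and 50 fell. In 10 further random draws, added after this had been seen, 1 to 37 genes rose and 0 to 23 fell, and each of the 21 genes kept its direction in all of the 10. Gria3 was called in 10 of them, Ano3 in 9, Trp53inp1, Rps27l, Phlda3 and Anks1b in 8, Bax and Ak1 in 7, Aldh1a1 and Exoc4 in 6, and Nr4a2 in 5. The remaining 10 genes were called in 4 or fewer, and Pde4b in 0. Without the 20-month library 37 genes rose (0.528%) and 19 fell, and 20 of the 21 genes were still called, Crip1 being the exception. Fewer of the 21 were still called without the 27-month library (10) or the 28-month library (13). The number was 3 with the drawn UMIs summed and 10 with DESeq2. Over all alternatives it ran from 0, without the library as a block, to 21, for instance with no gene filter.

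**Figure D2:**
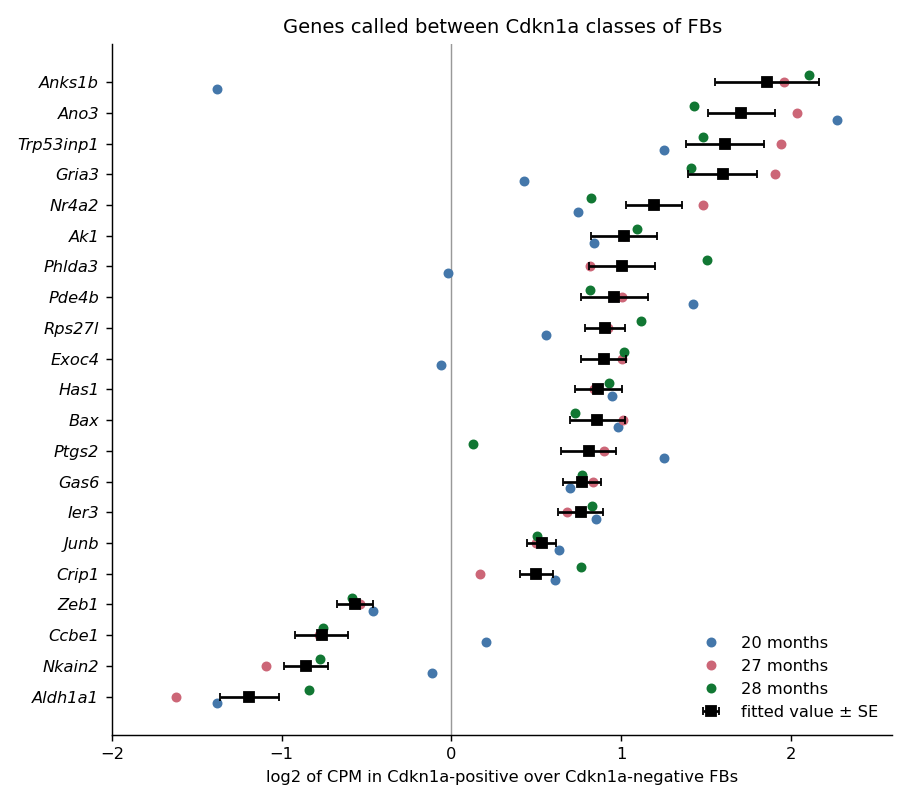
The 21 genes with an adjusted p under 0.05, ordered by fitted log2 fold change of Cdkn1a-positive over Cdkn1a-negative FBs (squares, bars are the SE), with the log2 ratio of CPM in each library (circles). Ano3, Trp53inp1, Bax and Ak1 lie to the right of 0 in all of the 3 libraries, and the 20-month circles of Anks1b, Phlda3, Exoc4 and Ccbe1 lie on the other side of 0 from the fitted value.

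Targets of p53 were higher in Cdkn1a-positive FBs. Of 34 genes of a p53 target list, from which Cdkn1a was left out, 14 passed the filter on low values. Of these 14, 12 were higher in positive FBs, with a median log2 fold change of 0.55 beside -0.0020 over all genes tested. The test called 3 of the 14 as higher (Trp53inp1, Bax and Phlda3), beside 0.243% of all genes. A total of 7 of the 14 were higher at an unadjusted p under 0.05, which held for 2.8% of all genes, and 0 were lower. Without the 20-month library 12 of 14 were higher, with a median of 0.62, and 5 were called, Mdm2 and Ephx1 being added, beside 0.528% of all genes. The number called was 2 (Trp53inp1 and Phlda3) without the 27-month library and 1 (Trp53inp1) without the 28-month library. It was 1 with the UMIs not drawn or with DESeq2 (Trp53inp1), and 1 with positive FBs at 2 or more UMIs (Bax). It was 0 with the drawn UMIs summed or without the library as a block. Another random seed or depth strata gave 4. In all of these settings 11 to 13 of the 14 were higher, with medians of 0.45 to 0.78.

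Trp53inp1, which promotes p53-dependent cell death and autophagy, was at 67.3, 74.2 and 76.7 CPM in positive and 28.2, 19.3 and 27.4 CPM in negative FBs at 20, 27 and 28 months. All 3 positive values were above all 3 negative ones, a log2 fold change of 1.61 ± 0.23 (SE, edgeR adjusted p = 0.00245). Bax, the pore-forming effector of mitochondrial cell death, was at 210.3, 126 and 141 CPM against 106, 62.3 and 85.1 CPM and likewise did not overlap. Its log2 fold change was 0.86 ± 0.16 (edgeR adjusted p = 0.030), and the call was lost without the 27-month library (edgeR adjusted p = 0.242) or the 28-month library (0.0802). Phlda3, an inhibitor of Akt signaling, was at 92.5, 175 and 167 CPM against 93.9, 99.2 and 58.9 CPM, nearly equal at 20 months, with a log2 fold change of 1.01 ± 0.20 (edgeR adjusted p = 0.0332). Without the 28-month library it was 0.60 and not called.

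Rps27l, a ribosomal protein S27 paralog and p53 target that stood in the list of ribosomal proteins, was at 622, 415 and 523 CPM in positive and 423, 219 and 241 CPM in negative FBs. It was higher in each library, by a log2 fold change of 0.91 ± 0.12 (edgeR adjusted p = 0.00173), while the 78 ribosomal protein genes tested had a median of -0.03. Because Rps27l and Rps27 are similar in sequence, reads could be split between them by the counting.

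Other p53 targets did not pass the test. Mdm2, the ubiquitin ligase that degrades p53, was at 42.1, 118 and 71.4 CPM against 50.1, 49.6 and 44.7 CPM, a log2 fold change of 0.85 ± 0.22 (edgeR adjusted p = 0.152). It was thus lower in positive FBs of the 20-month library, and in positive FBs of the 27-month library 32.3% of its UMIs came from 1 cell. Ccng1, which encodes cyclin G1, was at 92.5, 81.9 and 103 CPM against 47.0, 63.1 and 60.4 CPM, without overlap, at a log2 fold change of 0.61 ± 0.19 (edgeR adjusted p = 0.365). Trp53 itself, whose product is mainly set by protein stability, was at 67.3, 47.6 and 62.7 CPM against 65.7, 41.4 and 55.2 CPM (log2 fold change 0.15 ± 0.20, edgeR adjusted p = 0.993). Gadd45a and Ei24 were the 2 members with a negative sign, at -0.05 and -0.10.

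Of the 20 p53 targets below the filter, several were low in negative FBs. In the fit without a filter, which tested 23909 genes and called 0.197% of them as higher, all 34 members were fitted, 29 were higher, 8 were called and the median log2 fold change was 0.59 beside -0.16 over all genes. Eda2r, a TNF receptor family member, was at 33.6, 45.7 and 45.3 CPM against 6.26, 10.7 and 10.9 CPM (edgeR adjusted p = 9.9e-06). Zmat3, an RNA-binding protein, was at 25.2, 70.4 and 54.0 CPM against 6.26, 23.0 and 20.8 CPM (edgeR adjusted p = 0.000224). Sesn2, a stress-induced inhibitor of mTORC1, was at 33.6, 26.7 and 24.4 CPM against 3.13, 6.97 and 5.36 CPM. All positive values of these 3 genes were above all negative ones, and the share of such genes below the filter was not counted. Aen, a nuclease, reached 8.41, 24.7 and 36.6 CPM against 6.26, 5.33 and 7.21 CPM. These genes, picked out after their values were seen, rest on 76 to 230 UMIs each, and in the positive FBs of the 20-month library on 1 to 3 cells.

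The summed level of the 34 p53 targets followed the number of drawn Cdkn1a UMIs in the 27- and 28-month libraries. It was 1292, 1743 and 2815 CPM in FBs with 0, 1 and 2 or more Cdkn1a UMIs at 27 months, and 851, 1266 and 1927 CPM at 28 months, with exact 95% counting intervals that did not overlap between steps. These intervals cover counting error only and leave out the spread between cells and between animals, so they are no test of the steps. At 20 months it was 1277, 1235 and 1815 CPM, and the interval of FBs with 1 UMI (992 to 1520) overlapped both others. Over the same steps Bax was at 62.3, 86.8 and 187 CPM at 27 months and at 85.1, 104 and 275 CPM at 28 months. Rps27l was at 219, 329 and 552 CPM and at 241, 457 and 761 CPM. Bax and Rps27l were thus highest in FBs with 2 or more Cdkn1a UMIs in these libraries. Trp53inp1 was at 19.3, 46.5 and 118 CPM at 27 months. At 28 months it was at 27.4, 82.2 and 56.7 CPM, highest in FBs with 1 UMI, the last value resting on 7 UMIs. At 20 months Rps27l was at 423, 444 and 897 CPM and Bax at 106, 222 and 192 CPM, highest in FBs with 1 UMI. Among FBs at or below their library's median of immediate early UMIs, the p53 list was at 1727, 2021 and 1431 CPM in positive and 1216, 1075 and 828 CPM in negative FBs at 20, 27 and 28 months. Above that median it was at 1266, 2262 and 1396 CPM against 1342, 1590.1 and 874 CPM. Intervals overlapped in both parts of the 20-month library, where the list was lower in positive FBs above the median. Split by FB subset (more UMIs of Pi16-type than of Abca8a-type genes, or not), it was at 1596, 1957 and 1342 CPM against 1309, 1203 and 834 CPM in Pi16-type cells and at 804, 2521 and 1545 CPM against 1198, 1470.3 and 875 CPM in the others, where the 20-month library had just 7 positive cells and the opposite order.

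**Figure D3:**
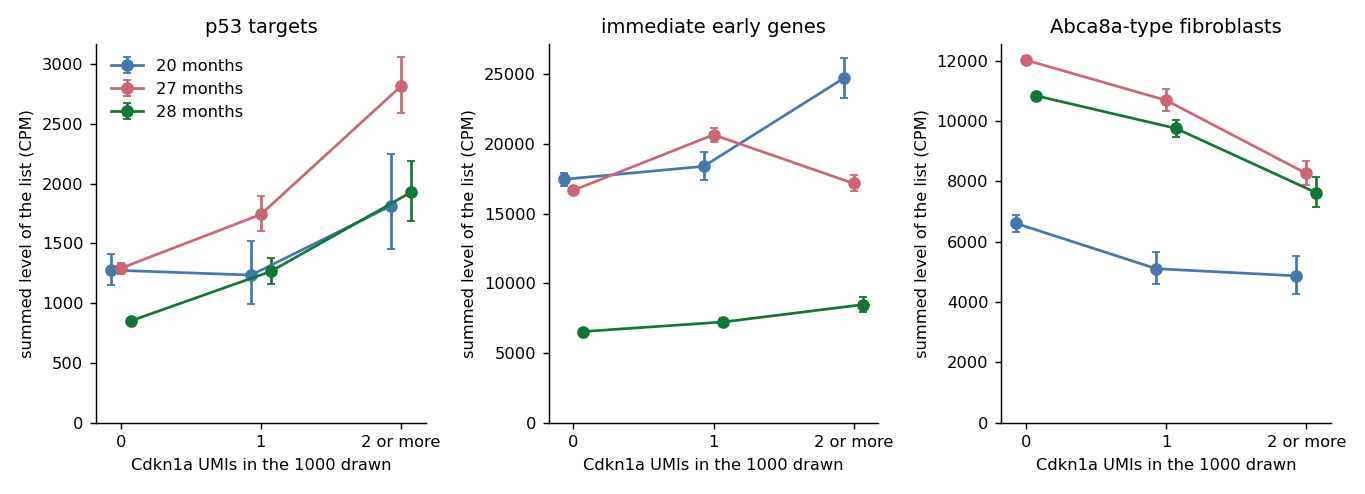
Summed level (CPM) of 34 p53 targets without Cdkn1a, 43 immediate early genes and 20 genes of Abca8a-type FBs in FBs with 0, 1 and 2 or more Cdkn1a UMIs among 1000 drawn, for each library (bars are exact 95% Poisson intervals, counting error only). The p53 targets reached 1815 to 2815 CPM in FBs with 2 or more, and the Abca8a-type genes were lowest there in all of the 3 libraries. The immediate early genes were lowest in FBs with 0 in all of the 3 libraries. They were highest in FBs with 2 or more at 20 and 28 months and in FBs with 1 at 27 months.

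The promoter windows of the genes that rose are shown because p53 binds a known DNA motif, 2 copies of a decamer separated by 0 to 13 bases. RefSeq windows (250 bases before to 50 after a start site, build GRCm38.p6) were matched by symbol for 15 of the 17 genes that rose, all but Trp53inp1 and Gria3, and for Cdkn1a, several start sites per gene included. The p53 decamer, which reads the same on both strands, was found in at least 1 window of 7 of the 15 genes (Anks1b, Bax, Crip1, Exoc4, Has1, Pde4b and Rps27l), in 8 of their 27 windows, beside 8.36% of 32851 windows in all. A full pair lay in 1 of 2 windows of Cdkn1a and in 0.0731% of all windows, and in 0 of the 15 genes. The AP-1 motif TGANTCA, looked for on both strands as the others, was in a window of Ak1 (7.81% of all windows) and the CRE motif TGACGTCA in that of Has1 (1.79%). Neither overlapped a p53 decamer. The 250 bases before the start site are printed 5′ to 3′ on the strand of the gene, with p53 decamers in capitals, for Cdkn1a (chr17:29090729-29090978, plus strand) with its pair, and for Rps27l (second start site, chr9:66946163-66946412, plus strand), Bax (chr7:45466899-45467148, minus strand) and Mdm2 (chr10:117710759-117711008, minus strand), p53 targets with decamers that form no pair.
Cdkn1a: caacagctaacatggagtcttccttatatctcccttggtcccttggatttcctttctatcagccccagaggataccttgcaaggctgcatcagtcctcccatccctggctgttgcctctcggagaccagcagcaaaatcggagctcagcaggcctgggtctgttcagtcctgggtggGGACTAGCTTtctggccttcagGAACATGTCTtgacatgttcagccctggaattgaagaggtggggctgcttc
Rps27l: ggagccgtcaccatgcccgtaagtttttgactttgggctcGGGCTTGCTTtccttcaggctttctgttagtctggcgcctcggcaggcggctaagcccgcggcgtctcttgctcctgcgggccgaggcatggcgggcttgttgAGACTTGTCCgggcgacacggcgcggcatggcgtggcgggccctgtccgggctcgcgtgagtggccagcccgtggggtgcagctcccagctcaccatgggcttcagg
Bax: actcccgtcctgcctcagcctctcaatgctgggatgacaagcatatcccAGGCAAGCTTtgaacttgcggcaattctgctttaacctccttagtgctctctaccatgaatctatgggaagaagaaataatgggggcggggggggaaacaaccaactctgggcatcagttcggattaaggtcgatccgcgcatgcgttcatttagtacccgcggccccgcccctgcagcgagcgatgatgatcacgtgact
Mdm2: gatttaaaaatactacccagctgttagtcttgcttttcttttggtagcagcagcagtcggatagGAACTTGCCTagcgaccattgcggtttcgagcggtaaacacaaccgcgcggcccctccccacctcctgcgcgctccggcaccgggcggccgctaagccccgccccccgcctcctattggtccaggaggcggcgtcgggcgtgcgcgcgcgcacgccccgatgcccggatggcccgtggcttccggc
The window of Cdkn1a printed is that of its first start site, and the window of its second, downstream start site held 0 decamers. In the printed window of Cdkn1a the decamers begin 73 and 51 bases before the first start site. In that of Rps27l they begin 210 and 107 bases before its second start site. In those of Bax and Mdm2 the decamer begins 201 and 186 bases before the start site. A match is a description of the letters and not evidence of binding, and Phlda3 had no match in its window.

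Ano3, Gria3, Anks1b, Exoc4 and Ak1, which stood in none of the lists, also rose. Ano3, a membrane protein of the anoctamin family of channels and scramblases, was at 75.7, 145 and 145 CPM in positive and 15.7, 35.3 and 53.6 CPM in negative FBs, the largest fold change among the genes that rose in each library. Its log2 fold change was 1.71 ± 0.20 (edgeR adjusted p = 0.000806), and it was found in 13.5%, 26.6% and 35.8% of positive cells against 5%, 12.6% and 18.4% of negative cells. Gria3, a subunit of AMPA-type glutamate receptors, was at 25.2, 162 and 90.6 CPM against 18.8, 43.0 and 34.0 CPM. It overlapped through the 20-month library, where it rested on 3 and 6 UMIs, and had a log2 fold change of 1.60 ± 0.20 (edgeR adjusted p = 0.00148), or 1.27 without the 27-month library (edgeR adjusted p = 0.0732). With FBs of 2 or more Cdkn1a UMIs as the positive class its log2 fold change was 2.22 (edgeR adjusted p = 0.0122).

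Anks1b, a scaffold protein best known from synapses, was at 8.41, 40.0 and 83.6 CPM in positive and 21.9, 10.2 and 19.4 CPM in negative FBs. The 20-month value of the positive class was 1 UMI, and the fitted log2 fold change was 1.86 ± 0.31 (edgeR adjusted p = 0.0067) or 2.04 without that library. Without the 28-month library it was 1.44 and not called (edgeR adjusted p = 0.334). Exoc4, a subunit of the exocyst that tethers secretory vesicles, was at 126, 609 and 631 CPM against 131, 303 and 311 CPM, a log2 fold change of 0.90 ± 0.13 (edgeR adjusted p = 0.00339). Ak1, adenylate kinase of the cytosol, was at 67.3, 78.0 and 80.2 CPM against 37.6, 38.5 and 37.5 CPM and did not overlap, with a log2 fold change of 1.02 ± 0.20 (edgeR adjusted p = 0.0316). Its call was kept in 12 of 20 alternatives and was lost without the 27-month library or the 28-month library.

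Gas6, Has1, Ptgs2, Pde4b and Crip1 rose as well, though each was called in 3 or fewer of the 10 further draws. Gas6, the ligand of the receptor tyrosine kinases Axl, Tyro3 and Mertk, was at 244, 586 and 779 CPM in positive and 150.3, 329 and 457 CPM in negative FBs (log2 fold change 0.77 ± 0.11, edgeR adjusted p = 0.00245). In the 20-month library 41.4% of its UMIs in positive FBs came from 1 cell. Has1, a hyaluronan synthase, was at 236, 472 and 76.7 CPM against 122, 264 and 40.2 CPM (log2 fold change 0.87 ± 0.14, edgeR adjusted p = 0.00617). Ptgs2, the inducible cyclooxygenase, was at 597, 537 and 50.5 CPM against 250.4, 288 and 46.2 CPM (log2 fold change 0.81 ± 0.16, edgeR adjusted p = 0.0402), with little difference at 28 months. Pde4b, which breaks down cyclic AMP, had a log2 fold change of 0.96 ± 0.20 and Crip1, a small LIM domain protein, one of 0.50 ± 0.10, with edgeR adjusted p of 0.0447 and 0.0332. Crip1 lost its call without the 20-month library (edgeR adjusted p = 0.0776).

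Immediate early genes, which are induced within minutes by growth factors, stress or digestion, were in part higher. Of 43 listed genes 37 were tested, 27 were higher and 3 passed the test (Nr4a2, Junb and Ier3), 13 were higher at an unadjusted p under 0.05 and 0 lower, and the median log2 fold change was 0.19. Over all genes tested, 0.243% rose and 2.8% were higher at an unadjusted p under 0.05. Without the 20-month library 26 of 37 were higher and 5 called (Klf4 and Rhob being added), beside 0.528% of all genes, with a median of 0.23. Nr4a2, an orphan nuclear receptor, was at 379, 569 and 24.4 CPM in positive and 225, 204 and 13.8 CPM in negative FBs, a log2 fold change of 1.19 ± 0.17 (edgeR adjusted p = 0.00245). It was higher within each library, and the levels of the libraries themselves differed far more, so that the groups overlapped. Without the 27-month library its log2 fold change was 0.77 (edgeR adjusted p = 0.752). Junb, a subunit of AP-1, was at 3062, 1854 and 420.0 CPM against 1969, 1312 and 296 CPM (log2 fold change 0.53 ± 0.09, edgeR adjusted p = 0.0067). Ier3, a regulator of survival under stress, was at 900.0, 291 and 48.8 CPM against 498, 182 and 27.4 CPM (log2 fold change 0.76 ± 0.13, edgeR adjusted p = 0.0137).

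The best known members of the early response did not pass the test. Fos was at 1741, 1262 and 259.6 CPM in positive and 1637, 1341 and 262 CPM in negative FBs, with a log2 fold change of -0.02 ± 0.09, Jun had -0.08 ± 0.10 and Atf3 0.18 ± 0.19, each with an edgeR adjusted p of at least 0.986. Cells were also split at the median of immediate early UMIs of their library, and each part was paired on its own. Nr4a2 and Ier3 were then still called, Junb was not, and the median of the list came to 0.04. Because the split used drawn UMIs of this same list, its lower median is in part set by the split and is no test. In the fit with this split Trp53inp1, Bax, Phlda3 and Rps27l were called, and the median of the p53 targets was 0.53. The part of the early response in the p53 values was not tested.

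Genes that fell in Cdkn1a-positive FBs were few in the draw used, 0 to 23 over the 10 further draws and 50 with another random seed. Cp and Sfrp1, not called in the draw used, were lower in all of the 10 and called in 6 of them. Aldh1a1, which makes retinoic acid from retinaldehyde, was at 33.6, 70.4 and 149.9 CPM in positive and 87.6, 217 and 268 CPM in negative FBs, a log2 fold change of -1.19 ± 0.17 (edgeR adjusted p = 0.00296). It was found in 8.11%, 36.7% and 48.1% of positive cells against 17.0%, 56.3% and 66.4% of negative cells. Nkain2, a partner of the sodium pump, was at 177, 308 and 615 CPM against 191, 658 and 1051 CPM (log2 fold change -0.86 ± 0.13, edgeR adjusted p = 0.00359). Zeb1, a repressor of epithelial genes, was at 193, 607 and 573 CPM against 266, 881 and 859 CPM (log2 fold change -0.57 ± 0.11, edgeR adjusted p = 0.0241). Ccbe1, a matrix protein needed for lymphatic growth, was at 25.2, 107 and 166 CPM against 21.9, 183 and 279.7 CPM (log2 fold change -0.76 ± 0.16, edgeR adjusted p = 0.0447), with no fall at 20 months.

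Markers of the Abca8a-type adventitial FBs were mostly lower in positive FBs, and 0 passed the test. Of 20 listed genes 17 were tested and 15 were lower, 9 of them at an unadjusted p under 0.05, beside 3.47% of all genes, and the median log2 fold change was -0.38. Calls were made under some other settings, 6 with another random seed (Abca8a, Svep1, Smoc2, Gdf10, Cxcl12 and Mgp), 5 with the class taken from all UMIs and 3 with 2000 UMIs drawn, all lower. Over all genes, 50 of 7001, 14 of 7001 and 9 of 7176 fell in the same fits. With the drawn UMIs summed, with the UMIs not drawn, with doublets removed, within depth strata and with DESeq2, 0 members were called. Without the 20-month library 16 of 17 were lower, with a median of -0.28, and 1 was called (Sparcl1). Mgp, the matrix Gla protein that prevents calcification, was at 1405, 3710.1 and 2806 CPM against 2795, 4724 and 3306 CPM (log2 fold change -0.48 ± 0.11, edgeR adjusted p = 0.115). The chemokine Cxcl12 was at 92.5, 175 and 338 CPM against 166, 243 and 439 CPM (log2 fold change -0.48 ± 0.13, edgeR adjusted p = 0.231). Summed over the list, the level was 5013, 9752 and 9299 CPM in positive and 6608, 12021 and 10842 CPM in negative FBs, lower in each library. Of the genes of the other subset, the Pi16-type FBs, 10 of 20 were higher and 10 lower, with a median of 0.0027. Pi16 itself had a log2 fold change of -0.11 ± 0.12 (edgeR adjusted p = 0.993). Cells with more Pi16-type than Abca8a-type UMIs made up 81.1%, 59.5% and 58.0% of positive and 63.0%, 62.1% and 51.8% of negative FBs. Within cells of the Pi16-type subset the Abca8a-type list was at 4243, 6588 and 6572 CPM against 5057, 8223 and 7413 CPM, and within the others at 8846, 15522 and 14938 CPM against 10404, 19574 and 15740 CPM. Drawn UMIs of this same list also helped to set the subsets, so these values are a description and no test. In them the level was lower in positive FBs of both subsets in each library. Among cells at or below the immediate early median it was higher in positive FBs at 28 months, at 11414 against 10855 CPM.

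Of the other marks of senescence that were tested, 0 passed the test. Of 118 genes of the SenMayo senescence signature 44 were tested, 18 were higher and 26 lower, 0 were called, and the median log2 fold change was -0.08. In the fit without a filter 98 members were fitted, 39 higher and 59 lower, with a median of -0.11 beside -0.16 over all genes. That fit called 4 of them as higher (Ccl2, Ccl7, Ccl8 and Serpine2), beside 0.197% of all genes, and 0 as lower. The 6 members at an unadjusted p under 0.05 that were higher were Serpine2, Ccl7, Mmp2, Cd55, Cd9 and Mmp3, and the 6 that were lower were Cxcl12, C3, Angpt1, Edn1, Igf1 and Igfbp7, beside 2.8% of all genes that were higher and 3.47% that were lower. When the 20-month library was left out, 17 of 44 were higher, with a median of -0.08, and Serpine2 was called. With another random seed 3 were called higher and 4 lower. Summed over the signature, the level was 27329, 24749 and 24653 CPM in positive and 25380, 26730 and 24339 CPM in negative FBs, with the order turned at 27 months. Cdkn2a was found in 1 of 37, 2 of 79 and 1 of 81 positive and 0 of 100, 3 of 396 and 2 of 705 negative FBs, or 7 and 7 UMIs in all, too few for a comparison at this depth. Lmnb1, a lamin that senescent cells lose, was at 42.1, 32.4 and 24.4 CPM against 21.9, 29.5 and 40.2 CPM (log2 fold change -0.21 ± 0.30, edgeR adjusted p = 0.993). Cdkn1b, which encodes the related inhibitor p27, had a log2 fold change of 0.14 ± 0.22 (edgeR adjusted p = 0.993), and of 7 cell cycle inhibitors tested 0 were called.

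Secreted factors of senescent cells were uneven between libraries and cells. Mmp3, a matrix protease, was at 336, 602 and 1009 CPM in positive and 316, 447 and 878 CPM in negative FBs (log2 fold change 0.26 ± 0.11, edgeR adjusted p = 0.643). Il6 was at 143, 179 and 1.74 CPM against 153, 113 and 4.53 CPM, Cxcl1 at 723, 135 and 8.71 against 532, 68.9 and 8.24 CPM and Gdf15 at 58.9, 34.3 and 6.97 against 75.1, 7.79 and 2.06 CPM, all below the filter. The chemokine Ccl2, below the filter too, was at 833, 28.6 and 188 CPM against 209.7, 14.8 and 41.0 CPM. It was called in the fit without a filter (edgeR adjusted p = 5.0e-21), but 1 cell held 56.6%, 40.0% and 61.1% of its UMIs in the positive class, and it was found in 21.6%, 10.1% and 13.6% of positive and 25%, 2.53% and 4.11% of negative cells, a lower share in positive cells at 20 months and a higher one at 27 and 28 months.

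Collagens, which FBs supply to the adventitia, did not pass the test. Of 44 collagens and elastic fiber genes tested 0 were called, 18 were higher and 26 lower, and the median log2 fold change was -0.04. At an unadjusted p under 0.05 a total of 9 were lower, beside 3.47% of all genes, among them Col6a3 (-0.65 ± 0.17, edgeR adjusted p = 0.165), Fn1, Fbln5 and Eln, and 1 was higher (Col8a1, 0.60 ± 0.18, edgeR adjusted p = 0.346). When the 20-month library was left out, 2 of the 44 were called, Col6a3 and Sparcl1, both lower. Col1a1, the main fibrillar collagen chain, was at 606, 710.0 and 1687 CPM in positive and 657, 806 and 1338 CPM in negative FBs (log2 fold change 0.03 ± 0.11). Of the other lists, 0 of 17 heat shock, 0 of 19 antioxidant, 0 of 12 circadian clock, 0 of 12 glucocorticoid response, 0 of 11 cyclin and proliferation, 0 of 17 YAP target, 0 of 36 TGF-beta and BMP genes, 0 of 21 cytokines and chemokines, 0 of 36 proteases and inhibitors, 0 of 35 interferon response genes, 0 of 70 respiratory chain genes and 0 of 13 genes of the integrated stress response were called, and Bax was the 1 called gene of 13 regulators of apoptosis. The integrated stress response had 11 of 13 members on the higher side with a median of 0.16, and all 9 mitochondrial transcripts tested were lower with a median of -0.14.

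**Figure D4:**
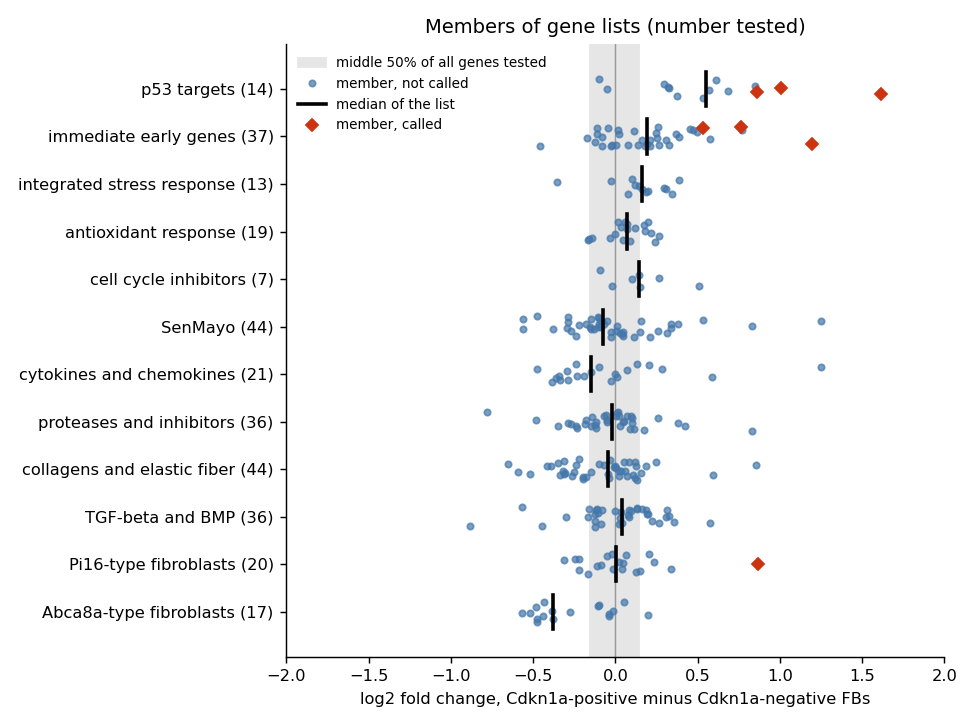
Log2 fold change of each tested member (points) of 12 gene lists between Cdkn1a-positive and Cdkn1a-negative FBs, with called members as diamonds, list medians as bars and the middle 50% of all 7001 genes shaded. The p53 targets lie to the right with a median of 0.55 and the Abca8a-type FB genes to the left with -0.38, while the SenMayo and collagen lists straddle 0.

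The difference between classes was then compared with that in SMCs and ECs of the same libraries, of which 359 of 3402 and 361 of 1509 were Cdkn1a-positive. Of 5599 genes tested in both FBs and SMCs, 2 had a larger class effect in FBs (0.0357%) and 0 a smaller one. Trp53inp1 had a log2 fold change of 1.60 in FBs and 0.30 in SMCs, a difference of 1.31 ± 0.25 (edgeR adjusted p = 0.0256). In SMCs it was at 31.4, 72.5 and 128 CPM in positive and 12.5, 56.4 and 110.5 CPM in negative cells. Nr4a2 had 1.22 in FBs and 0.11 in SMCs, a difference of 1.11 ± 0.20 (edgeR adjusted p = 0.0256). In SMCs it was at 62.9, 346 and 79.1 CPM against 97.4, 299 and 77.7 CPM, with the opposite sign at 20 months. Without the 27-month library 1 gene had a larger and 2 a smaller effect in FBs than in SMCs, and without the 20-month library 2 had a larger and 0 a smaller one.

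Phlda3 was the p53 target that rose in SMCs too, at a log2 fold change of 1.29 (edgeR adjusted p = 2.8e-05) beside 1.03 in FBs, and the difference of -0.26 ± 0.23 did not pass the test. Of 12 p53 targets tested in both, 11 were higher in positive FBs (median 0.59) and 9 in positive SMCs (median 0.27). Ano3 and Gria3 were below the filter in SMCs. At 27 and 28 months Ano3 was at 22.1 and 35.5 CPM in positive and 2.96 and 3.63 CPM in negative SMCs, and Gria3 at 32.8 and 35.5 CPM against 9.58 and 7.92 CPM. At 20 months the positive SMCs held 0 UMIs of either gene. Higher values in positive cells were thus present in SMCs of both deeper libraries, untested.

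Between FBs and ECs 0 of 5423 genes differed in class effect at an adjusted p under 0.05 by edgeR, and 308 did at an unadjusted p under 0.05. The same fit also called 0 genes for the class effect in FBs alone, so its 0 differences do not show that the effects were alike. Of 10 p53 targets tested in both, 9 were higher in positive FBs (median 0.53) and 8 in positive ECs (median 0.13). Immediate early genes had the opposite order, with a median of 0.38 in ECs and 0.19 in FBs. Phlda3 had a log2 fold change of 0.98 in FBs and 0.0039 in ECs, and Gas6 0.76 and -0.50, with differences of 0.98 ± 0.34 and 1.26 ± 0.24 (edgeR adjusted p = 0.752 and 0.124). Without the 20-month library, in which 47.4% of ECs were positive, 2 genes had a larger and 2 a smaller effect in FBs.

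**Figure D5:**
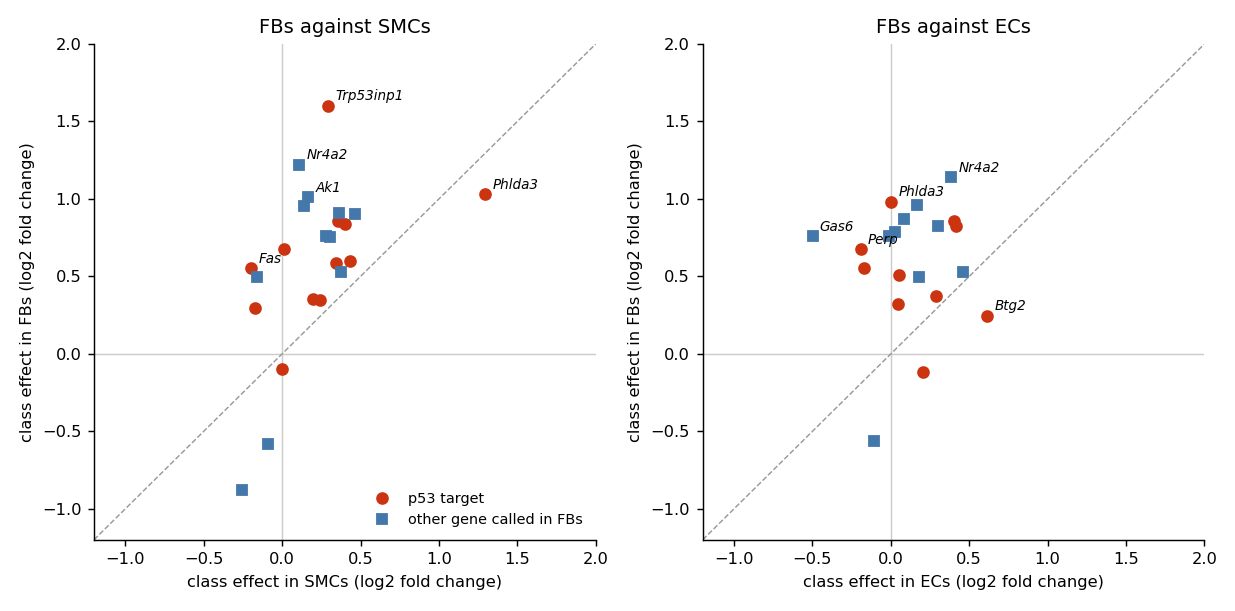
Log2 fold change between Cdkn1a-positive and Cdkn1a-negative cells in FBs (vertical axis) against that in SMCs (left) and ECs (right), for p53 targets (circles) and other genes called in FBs (squares) that were tested in both types. Dashed lines mark equal effects. Trp53inp1 (1.60 in FBs, 0.30 in SMCs) and Nr4a2 (1.22, 0.11) lie farthest above the line for SMCs and Phlda3 (1.03, 1.29) below it.

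The remaining libraries held few FBs and were not part of the comparison. In the 24-month male 11 of 65 FBs and in the young male of 3 months 8 of 59 were Cdkn1a-positive, and the young female gave 2 FBs with 0 positive. The summed p53 targets were at 1810 CPM (exact 95% interval 1182 to 2652) in positive and 1334 CPM (1083 to 1625) in negative FBs of the 24-month library, and at 1980 CPM (1394 to 2729) against 1498 CPM (1253 to 1778) in the young male. Both libraries had the higher value in positive FBs, with intervals that overlapped. The immediate early list was at 28192 against 24113 CPM in the 24-month library and at 28411 against 21673 CPM in the young male, with intervals that did not overlap. The Abca8a-type list was at 6961 against 7539 CPM, with intervals that overlapped, and at 2729 against 4106 CPM, with intervals that did not. All of these intervals cover counting error only.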

How the data were processed

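Single cells of mouse proximal PAs were profiled by droplet 3′ RNA sequencing. The authors deposited raw UMI counts for each gene in each barcode, which per their processing notes were made with cutadapt, STAR and STARsolo on GRCm38.p6 (versions not given in the sources used here). Of 53647 gene entries, 81 symbols stood on several and were summed. Barcodes with at least 1000 UMIs, 500 genes and at most 20% mitochondrial UMIs were kept, and scrublet doublets were removed only as an alternative. The members and lists were chosen with earlier results of these data known. All UMIs were summed per library and class, and at least 10 cells per class were asked for only in the comparison between cell types. Genes with a UMI in more than 5% of FBs of each library were tested by edgeR's quasi-likelihood F test with TMM. The library was a block, because both classes came from the same animal. P-values were adjusted by Benjamini-Hochberg over all genes tested, two-sided, and an SE was derived from log2 fold change and F. Differences between cell types were interaction terms. Replicates were libraries of 1 animal each. On simulated counts 65 to 79% of genes changed 2-fold and 97 to 98.5% of those changed 4-fold were recovered, with 5 to 13 and 2 to 8 false calls.

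Text named called genes with the same direction in all 3 libraries and at least 100 UMIs (the 12 largest rises and falls), up to 6 called members of each list, and 19 genes whatever their values, of which 1 is not reported here. The other genes named, among them Anks1b, Exoc4, Ccbe1, Crip1, Eda2r, Zmat3, Sesn2, Aen and list members short of the threshold, were chosen after their values were seen. Alternatives changed the draw, the class limit, the UMIs summed, the cell and gene filters, the normalization, the tool, the strata and the libraries. Summed UMIs per class ran from 118886 to 4851901, so low genes of the 20-month library rest on few UMIs. Intervals are exact binomial or Poisson, at 95%. Python 3.11.15, numpy 2.4.6, pandas 2.3.3, scipy 1.17.1, scanpy 1.11.5, matplotlib 3.10.9, R 4.3.3, edgeR 4.0.16 and DESeq2 1.42.0 were used.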

Additional observations from a re-analysis of the deposited data

Results flagged for a closer look

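The difference between Cdkn1a-positive and Cdkn1a-negative cells was larger in FBs than in SMCs for 2 genes by the interaction test of edgeR (adjusted p = 0.0256 for both). For Nr4a2 the log2 difference of the effects was 1.11 and for Trp53inp1 it was 1.31. Of the 359 positive SMCs, 292 came from the 27-month library, and without that library 1 gene had a larger effect in FBs.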

How the results depend on the processing

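All of the 21 called genes kept their sign in each of the alternatives run, and 295 of 419 of their values kept the call. The numbers of genes that rose and fell, 17 and 4, moved with the processing. The number that rose was 2 with the drawn UMIs summed, 11 with the UMIs not drawn, 6 with positive FBs at 2 or more UMIs, 28 with the class taken from all UMIs, 42 with another seed, 47 with no gene filter, 9 with DESeq2, 9 at the study's threshold (unadjusted p under 0.05 and fold over 2), 1 to 37 over 10 further draws and 19 to 37 without 1 library. The number that fell was 14 with the class from all UMIs, 50 with another seed, 9 with 2000 UMIs drawn, 13 within depth strata, 12 within FB subsets, 13 within strata of immediate early UMIs, 53 with no gene filter, 1 with DESeq2, 22 at the study's threshold, 0 to 23 over the draws and 6 to 19 without 1 library. Without the replicate block 0 rose and 0 fell by edgeR, with 56 genes at an unadjusted p under 0.05. The cause of these moves was not tested. With 2000 UMIs drawn the shares of positive FBs were 41.2%, 24.1% and 17.0%, and with at least 8 marker UMIs the share of cells with an opposing gate UMI differed by -7.63 percentage points in place of -4.76. The number of genes with a larger effect in FBs than in SMCs was 1 with the drawn UMIs and 1 to 2 without 1 library, and with a smaller effect 0 to 2. For ECs these were 2 and 1 with the drawn UMIs and 0 to 2 and 0 to 2 without 1 library. The comparison is limited by 3 animals, by 37 positive cells in the shallowest library and by a class drawn from few UMIs, which leaves Cdkn1a-expressing cells among the negative FBs.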
